A study of Homo sapiens with 5 samples.

Results

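The mRNAs described here are those of 8 genes that answer to small molecules, AHR, AHRR, TIPARP, NQO1, HMOX1, GCLM, TXNRD1 and SRXN1. They were taken by gene symbol from a table of 25702 genes, and all 8 were found once, under the Entrez gene IDs 196 (AHR), 57491 (AHRR), 25976 (TIPARP), 1728 (NQO1), 3162 (HMOX1), 2730 (GCLM), 7296 (TXNRD1) and 140809 (SRXN1). RNA immunoprecipitation followed by sequencing (RIP-seq) had been done on LTAD, a human prostate cancer cell line grown in medium with 10% hormone-stripped serum. PSF, the antibody's target, is a nuclear RNA-binding protein encoded by SFPQ. The series title concerns whether a small molecule changes PSF's binding to RNA. All cells had received either the solvent DMSO, called vehicle, or the compound No.10-3 at 5 µM, which is known here only by its code name. The groups were 2 input libraries (RNA of the lysate, 1 from vehicle and 1 from No.10-3 cells), 1 PSF-RIP library with vehicle and 2 PSF-RIP libraries with No.10-3, called replicates 1 and 2. The names of the input columns do not tell vehicle from No.10-3, so both inputs served as one reference and are called input libraries 1 and 2. All libraries came from 1 cell line, the treatment time is not given in the labels, and no control immunoprecipitation was analysed here. Nothing in the labels says that replicates came from separate cultures, so p-values measure only the spread between these libraries, which may be technical. The spread of the input pair also takes in any difference between vehicle and No.10-3 cells.

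The aryl hydrocarbon receptor, encoded by AHR, is a transcription factor held in the cytosol by a complex with HSP90 and the p23 protein. A ligand sends it to the nucleus, where it pairs with ARNT and binds xenobiotic response elements (XREs). AHRR competes with it, and TIPARP, an ADP-ribosyltransferase induced by it, damps it. NRF2, encoded by NFE2L2, is a transcription factor that KEAP1 holds for destruction through the CUL3 and RBX1 ubiquitin ligase until electrophiles or oxidants modify KEAP1. It then pairs with small MAF proteins at antioxidant response elements (AREs) and raises enzymes of quinone reduction (NQO1), heme breakdown (HMOX1), glutathione synthesis (GCLM), thioredoxin reduction (TXNRD1) and peroxiredoxin repair (SRXN1).

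Both pathways act through short elements before their target genes, so the promoters were searched for them. In RefSeq promoter entries (GRCh38.p14, a later build than the hg19 of the counts), 7 of the 8 genes were matched, and no entry was matched for HMOX1. The 250 bases before each start were searched on both strands for the XRE core GCGTG and the ARE core TGACNNNGC, which do not overlap in the matches shown. The XRE core was held by 4 of the 7 genes (AHRR, TIPARP, GCLM, TXNRD1), in 5 of the 11 entries of the 7, and by 32.2% of all 35116 promoter entries. The ARE core was held by 2 of the 7 (GCLM, TXNRD1), in 3 of the 11 entries, and by 10.9% of all entries. These windows are shown for TIPARP, the member with a called difference, for GCLM and TXNRD1, which hold both cores, and for AHRR, with the cores in capitals (GCGTG or its reverse complement CACGC, and the ARE core on either strand), each read 5′ to 3′ on the gene's strand. The TIPARP window, before the first start listed, lies at chr3:156674357-156674477 on the plus strand. TIPARP starts 2 and 3 held neither core. The GCLM window lies at chr1:93909431-93909657 on the minus strand. That before the second TXNRD1 start lies at chr12:104286905-104287006 on the plus strand, and that before the first AHRR start listed at chr5:321659-321713 on the plus strand.
TIPARP: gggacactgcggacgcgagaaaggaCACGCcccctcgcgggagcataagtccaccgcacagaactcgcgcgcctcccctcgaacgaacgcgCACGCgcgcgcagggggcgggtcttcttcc
GCLM: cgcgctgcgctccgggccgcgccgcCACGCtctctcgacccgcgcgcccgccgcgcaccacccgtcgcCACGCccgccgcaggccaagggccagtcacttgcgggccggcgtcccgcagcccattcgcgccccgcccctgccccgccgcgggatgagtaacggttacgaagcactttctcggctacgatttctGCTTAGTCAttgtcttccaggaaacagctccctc
TXNRD1: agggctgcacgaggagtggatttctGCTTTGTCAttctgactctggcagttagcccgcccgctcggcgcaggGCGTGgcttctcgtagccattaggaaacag
AHRR: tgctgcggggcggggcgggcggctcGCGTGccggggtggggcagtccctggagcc
In GCLM the ARE core begins 34 bases before the start, and in TXNRD1 it begins 102 bases before. A match is a description of letters in this window only.

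The libraries held 1519362 to 4010376 counts over genes. The median tested gene had 16 and 23 counts in the inputs and 38 to 105 in PSF-RIP. In the inputs, 5 small RNAs (RN7SK, RN7SL1, RN7SL2, RMRP and RPPH1) took 51.7% and 55% of all counts, against 2.63% to 7.81% in PSF-RIP. Levels are therefore given as normalised CPM, the CPM after TMM scaling of all 5 libraries, whose factors were 0.365 and 0.387 for the inputs and 1.78 to 2.06 for PSF-RIP. With library totals in place of these factors the median log2 change of PSF-RIP over input for all tested genes moves from 0.05 to 2.38. Changes over input are thus changes relative to the bulk of genes and not absolute recovery. Luminal prostate markers summed to 1383 to 1559 normalised CPM in every library, with 9 of 9 at a mean of at least 1 CPM. Basal markers summed to at most 0.578, with KRT5 and TP63 at 0 counts. The leukocyte list summed to 1.78 to 4.04 with PTPRC and CD3E at 0, the neuroendocrine list to 37.3 to 79.1 with CHGA at 0, and the fibroblast and endothelial list to 6.22 to 44.3, carried by COL1A1. The part of these lists in the results was not tested.

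Per length, the order of the 8 mRNAs could be read within each library from FPKM, computed here from the counts and deposited gene lengths. SRXN1 (18.7 and 23.4 FPKM) and TXNRD1 (22.0 and 17.6) were the most abundant in the inputs and overlapped. HMOX1 (15.1 and 9.18), NQO1 (8.47 and 10.4) and TIPARP (6.55 and 10.2) followed with overlapping values, and GCLM was lower at 2.51 and 2.85. AHRR stood at only 0.132 and 0.172, and AHR had no counts. In PSF-RIP, SRXN1 was highest at 91.9 to 135 FPKM and AHR lowest at 0.211 to 0.333. TIPARP, at 9.61 to 22.7 FPKM, lay below NQO1, at 32.4 to 56.8, in every PSF-RIP library, and it was also the lower of the pair in each input. FPKM is a share of the library's counts, so its values in PSF-RIP and in input are not on one scale.

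**Figure D1:**
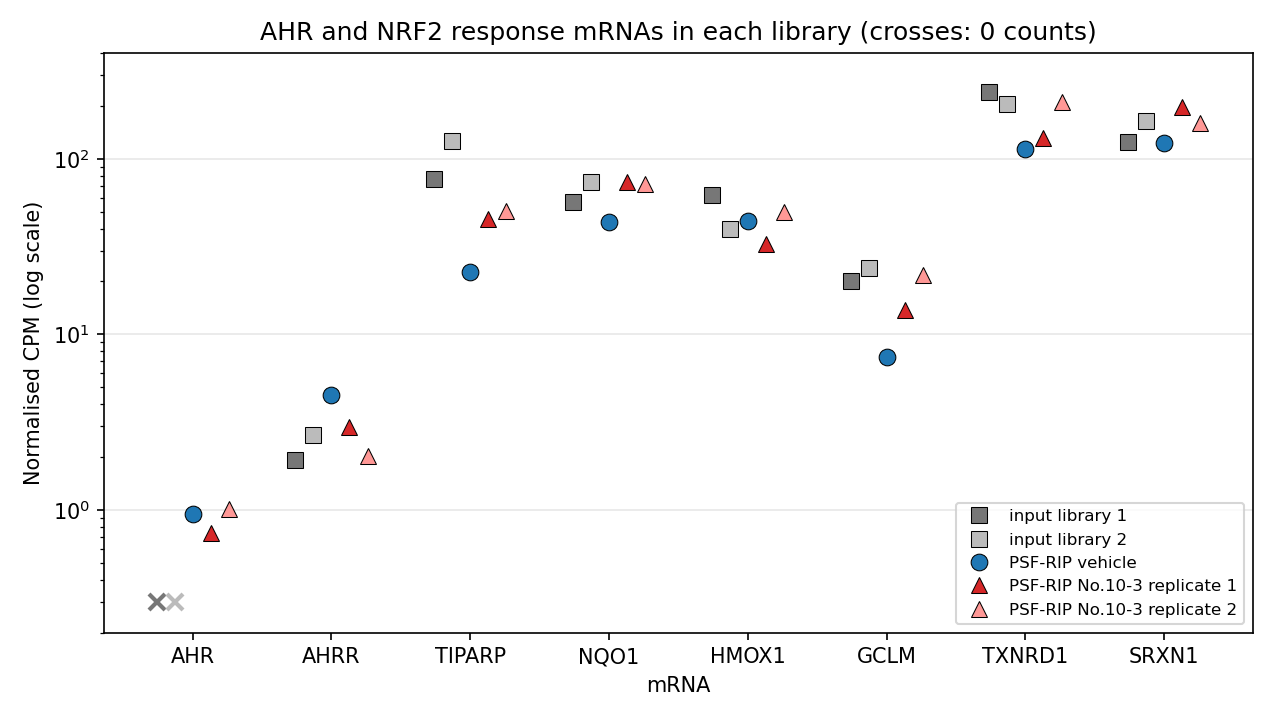
Normalised CPM (log scale) of the 8 mRNAs, 1 point per library: squares are the inputs, circles PSF-RIP with vehicle and triangles PSF-RIP with No.10-3, and crosses mark 0 counts. For TIPARP all PSF-RIP points (22.6 to 50.1) lie below both inputs (76.6 and 126), and the vehicle point is lowest for TIPARP, NQO1, GCLM, TXNRD1 and SRXN1.

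For PSF-RIP over input, TIPARP was the 1 mRNA of the 8 that passed the test, and it was lower in PSF-RIP. The other 7 did not pass. By edgeR's quasi-likelihood test over all 5 libraries, 25.6% of the 13321 tested genes had an adjusted p under 0.05, 12.0% higher and 13.6% lower in PSF-RIP, so 1 call among 8 is no excess over the background. With library totals in place of TMM factors, 11223 genes were called higher and 54 lower, against 1596 and 1817. All 3 PSF-RIP libraries lay below both inputs for 1 of the 8 (TIPARP) and for 25.1% of all tested genes, and above both for 1 (AHR) and for 30.1%. In such bulk RNA, the level of a gene within a library does not tell fewer cells that express it from less RNA per cell.

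AHR, the receptor itself, was close to the limit of detection. It had 0 counts in both inputs, 4 in PSF-RIP with vehicle, and 2 and 7 in replicates 1 and 2 with No.10-3. It passed the filter, at a mean of 1.05 CPM, only through the PSF-RIP libraries. Over the inputs together, the limit of 3 counts is 1.12 normalised CPM, above the pooled PSF-RIP level of 0.940. No fold is therefore given, and a difference was not detectable at this depth. AHRR, the repressor, had 3 counts in each input, 19 in PSF-RIP with vehicle, and 8 and 14 with No.10-3. These are 1.93 and 2.67 normalised CPM in the inputs, 4.53 with vehicle, and 2.96 and 2.02 with No.10-3. The vehicle library was highest and the treated pair overlapped the inputs. The log2 change of AHRR over input was 0.54 (SE 0.76, edgeR adjusted p = 0.633). RefSeq also lists a readthrough transcript, PDCD6-AHRR, over this gene, so the reads of AHRR are uncertain.

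TIPARP, the feedback enzyme of AHR, had 119 and 142 counts in the inputs, 95 in PSF-RIP with vehicle, and 122 and 347 in replicates 1 and 2 with No.10-3. Its level was 76.6 and 126 normalised CPM in the inputs, 22.6 with vehicle, and 45.1 and 50.1 with No.10-3. Every PSF-RIP library was thus below every input, and vehicle was the lowest. The means were 101 ± 35.1 normalised CPM in input (SD, n = 2) and 39.3 ± 14.6 in PSF-RIP (SD, n = 3). The fitted log2 change over input was -1.62 (SE 0.37), 3.07-fold lower, with an edgeR adjusted p of 0.00151. The vehicle group taken alone gave -2.16 (SE 0.53, edgeR adjusted p = 0.00472), and the No.10-3 group alone gave -1.08 (SE 0.39, edgeR adjusted p = 0.0607). The No.10-3 value passed the test at a mean of at least 5 CPM (edgeR adjusted p = 0.0446) and with factors from protein-coding genes (0.0470). It was -1.01 without treated replicate 1, -1.17 without replicate 2 and -0.68 without input library 2. Among all tested genes, edgeR called 10.0% higher and 10.4% lower (20.5% in all) with vehicle, and 4.98% higher and 6.50% lower (11.5% in all) with No.10-3. The call was lost without input library 2 (log2 change -1.22, edgeR adjusted p = 0.164) and without the vehicle PSF-RIP library (-1.09, edgeR adjusted p = 0.0678). With library totals, the fitted change of TIPARP over input was 0.75, which is -1.64 relative to the median gene. The antisense gene TIPARP-AS1 had 0 to 3 counts per library, and reads of the 2 genes cannot be told apart if counting ignored strand.

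The NRF2 target mRNAs among the 8 did not pass the test over input in the main fit of all 5 libraries. GCLM, the modifier subunit of glutamate-cysteine ligase, had 31 and 27 counts in the inputs, 31 with vehicle, and 37 and 150 with No.10-3. Its level was 20.0 and 24.0 normalised CPM in the inputs, 7.39 with vehicle, and 13.7 and 21.7 with No.10-3. Vehicle and replicate 1 were below both inputs, while replicate 2 lay between them. The log2 change of GCLM over input was -0.92 (SE 0.43, edgeR adjusted p = 0.108). It was -1.13 without replicate 2, where only the input pair sets the spread, and -0.30 without the vehicle PSF-RIP library (edgeR adjusted p = 0.691). The vehicle library alone gave -1.56 (SE 0.59, edgeR adjusted p = 0.0544).

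TXNRD1, thioredoxin reductase 1, had 373 and 230 counts in the inputs, 477 with vehicle, and 355 and 1452 with No.10-3. Its level was 240 and 204 normalised CPM in the inputs, 114 with vehicle, and 131 and 210 with No.10-3. Replicate 2 lay within the range of the inputs, and vehicle and replicate 1 lay below it. The log2 change was -0.67 (SE 0.38, edgeR adjusted p = 0.183). It was -0.88 without replicate 2, where only the input pair sets the spread. Without the vehicle PSF-RIP library the change of TXNRD1 was -0.39 (edgeR adjusted p = 0.550).

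NQO1, a quinone reductase, had 88 and 83 counts in the inputs, 183 with vehicle, and 198 and 496 with No.10-3. Its level was 56.7 and 73.8 normalised CPM in the inputs, 43.6 with vehicle, and 73.2 and 71.6 with No.10-3. The treated pair fell inside the range of the inputs and vehicle below it. The log2 change was -0.21 (SE 0.36, edgeR adjusted p = 0.699), and without the vehicle PSF-RIP library it was 0.14.

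HMOX1, heme oxygenase 1, had 96 and 45 counts in the inputs, 184 with vehicle, and 88 and 343 with No.10-3. Its level was 61.8 and 40.0 normalised CPM in the inputs, 43.9 with vehicle, and 32.5 and 49.5 with No.10-3, so PSF-RIP and input overlapped. The log2 change of HMOX1 was -0.27 (SE 0.37, edgeR adjusted p = 0.626). It turned to 0.09 without input library 1. SRXN1, sulfiredoxin, had 193 and 186 counts in the inputs, 516 with vehicle, and 529 and 1108 with No.10-3. Its level was 124 and 165 normalised CPM in the inputs, 123 with vehicle, and 196 and 160 with No.10-3. Input and PSF-RIP overlapped here too, and the log2 change of 0.03 (SE 0.37, edgeR adjusted p = 0.959) took the other sign under several other settings, down to -0.16.

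**Figure D2:**
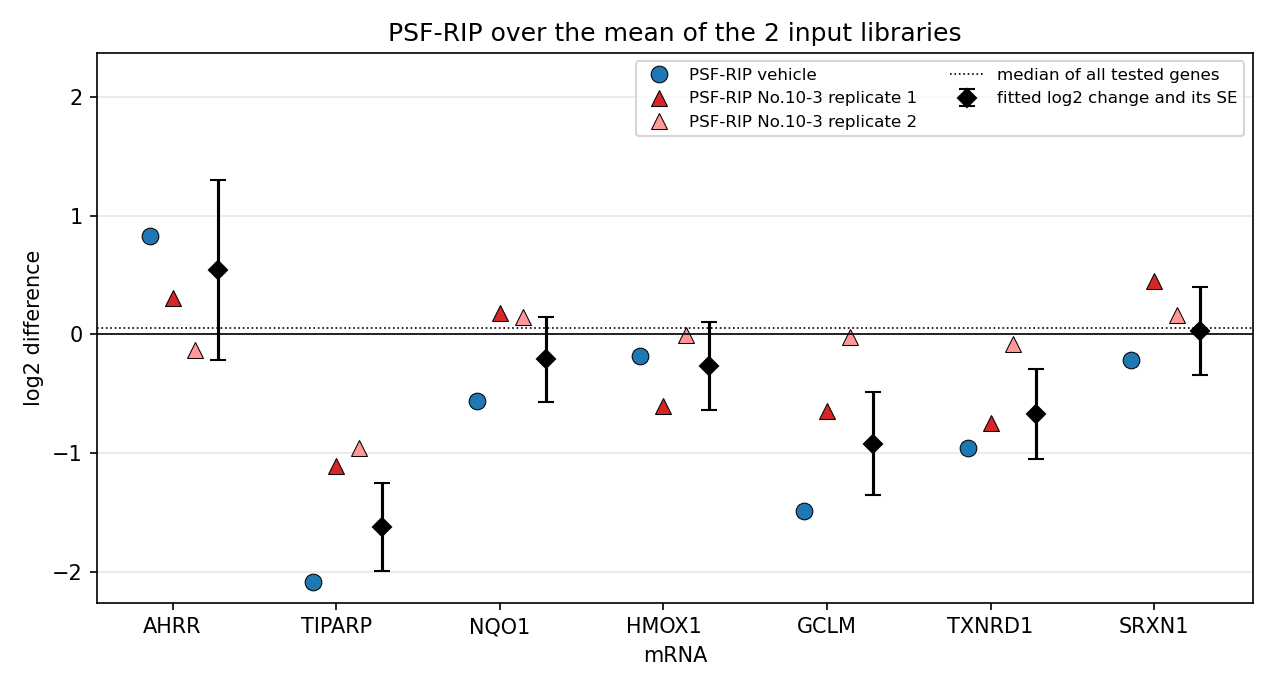
Log2 difference of each PSF-RIP library from the mean of the inputs (log2 CPM with a prior count of 2), with the fitted change and its SE as diamonds and bars. The dotted line is the median of all tested genes (0.05), AHR is left out because both inputs had 0 counts, and TIPARP lies lowest at -2.09, -1.11 and -0.96.

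With No.10-3, PSF-RIP held more of 5 of the 8 mRNAs than the vehicle library in both replicates, TIPARP, NQO1, GCLM, TXNRD1 and SRXN1. AHRR was lower in both, and AHR and HMOX1 lay on both sides of vehicle. Of all 13766 tested genes 33.2% were higher than vehicle in both replicates and 32.4% lower, and both replicates are set against the same vehicle library. None of the 8 passed the test (edgeR adjusted p = 0.998 for each), and edgeR called 0% of all tested genes. The unadjusted edgeR p was under 0.05 for 563 of the 13766. By DESeq2 the numbers were 0 called and 123 with a raw p below that level. Since the inputs cannot be told apart by treatment, recovery by PSF and the amount of each mRNA in the cells cannot be told apart.

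GCLM had the largest fitted difference of the 8. From 7.39 normalised CPM with vehicle to a treated mean of 17.7 ± 5.64 (SD, n = 2), its fitted log2 difference was 1.27 (SE 0.67), and the replicates were 0.84 and 1.48 above vehicle. TIPARP was at 22.6 with vehicle and at a treated mean of 47.6 ± 3.52, which is a fitted log2 difference of 1.07 (SE 0.60). Its replicates were 0.98 and 1.13 above vehicle on the log2 scale, close to each other. The treated libraries of TIPARP still lay below both inputs.

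NQO1 was at 43.6 normalised CPM with vehicle, against a treated mean of 72.4 ± 1.14, for a fitted log2 difference of 0.73 (SE 0.58), with its replicates 0.74 and 0.71 above vehicle. The agreement of this pair says nothing of the error of the single vehicle value. For TXNRD1 the values were 114 with vehicle and a treated mean of 170 ± 55.4, for a fitted log2 difference of 0.58 (SE 0.63), most of it from replicate 2, which was 0.88 above vehicle against 0.21 in replicate 1. SRXN1 stood at 123 and 178 ± 25.2, a log2 change of 0.53 (SE 0.63).

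HMOX1 stood at 43.9 normalised CPM with vehicle and 41.0 ± 12.0 with No.10-3, with replicate 1 at -0.42 and replicate 2 at 0.17 on the log2 scale. AHRR stood at 4.53 and 2.49 ± 0.663, a log2 change of -0.92 (SE 0.79). The pooled treated counts of AHRR over vehicle gave a ratio of 0.504 (exact 95% Poisson interval 0.261 to 0.986, which covers counting error only). For AHR the same ratio was 0.980 (0.274 to 4.36), so a change of several-fold either way lies within the counting interval.

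**Figure D3:**
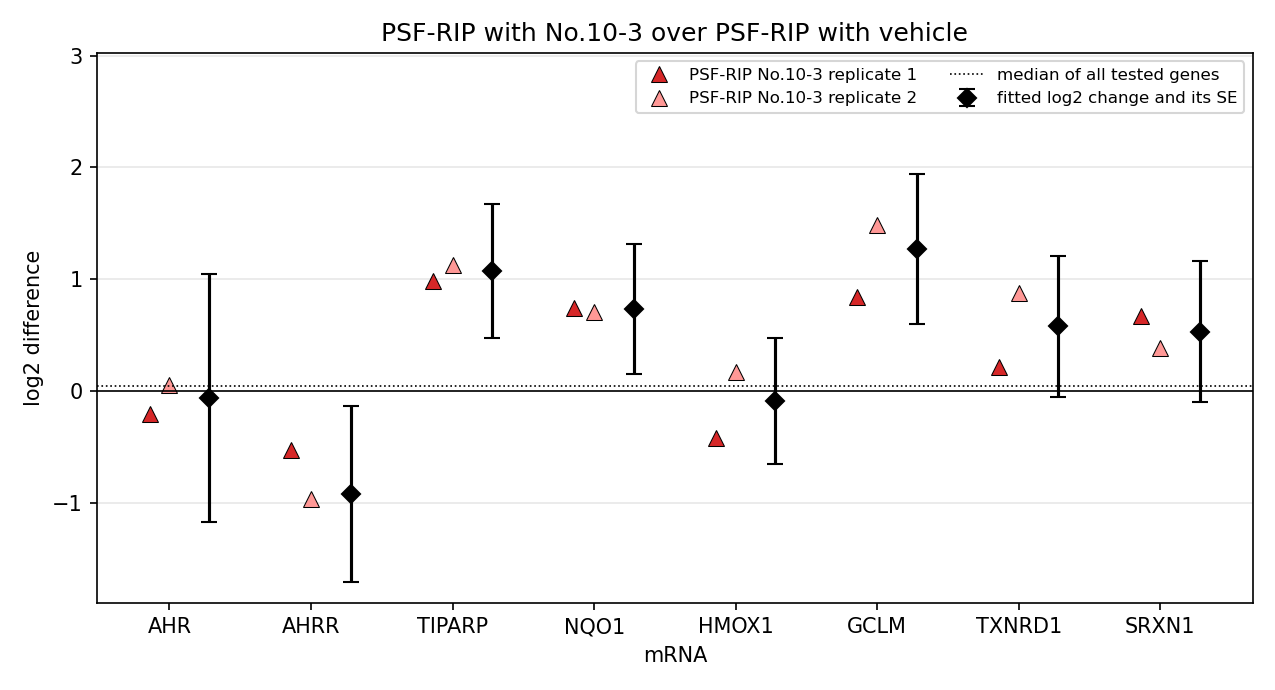
Log2 difference of each No.10-3 PSF-RIP library from the vehicle PSF-RIP library (triangles, prior count of 2), with the fitted change and its SE. The SE bars of TIPARP, NQO1 and GCLM lie above 0, that of AHRR below it, and those of AHR, HMOX1, TXNRD1 and SRXN1 span it; none passed the test after adjustment over all genes.

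Other genes of both pathways were read from 3 lists. In the AHR list, 13 of 25 genes were tested, and none was called lower over input, against 13.6% of all tested genes. The list's median log2 change over input was 0.43, against 0.05 for all tested genes. The chaperones HSP90AA1 (log2 change 0.45) and HSP90AB1 (0.39) and the p23 gene PTGES3 (-0.82), the most abundant of the list, did not pass. CYP1A1, the textbook AHR target, was low in all libraries, with 7 and 3 counts in the inputs, 19 in PSF-RIP with vehicle, and 21 and 41 with No.10-3. CYP1B1 had 0 counts in every library.

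In the NRF2 control list, 15 of 15 genes were tested, 4 rose and 2 fell over input, and the median was -0.11. Of all tested genes, 12.0% rose and 13.6% fell. KEAP1, the repressor of NRF2, stood at 32.8 and 30.2 normalised CPM in the inputs, 82.0 with vehicle, and 80.6 and 68.3 with No.10-3, for which the fitted log2 change was 1.30 (SE 0.38, edgeR adjusted p = 0.0109). NFE2L1, an NRF2-related factor, had a log2 change of 1.27 (edgeR adjusted p = 0.0150), the coactivator gene CREBBP 1.11 (0.0298) and the small MAF gene MAFG 1.02 (0.0483). KEAP1 and NFE2L1 were called in 9 of 12 other settings and CREBBP in 8. MAFG was called in 3 of 12 other settings only, and its call was lost with DESeq2 among others. BACH1, a repressor that competes with NRF2 at AREs, stood at 61.2 and 47.1 normalised CPM in the inputs, 13.6 with vehicle, and 22.6 and 33.1 with No.10-3, for which the fitted log2 change was -1.47 (SE 0.38, edgeR adjusted p = 0.00420). RBX1, of the ubiquitin ligase, had a log2 change of -1.26 (edgeR adjusted p = 0.0133). BACH1 was called in 9 of 12 other settings and RBX1 in 8. SQSTM1, the most abundant of the list, had 0.76 and did not pass. NFE2L2, which encodes NRF2 itself, stood at 42.5 and 45.3 normalised CPM in the inputs, 18.1 with vehicle, and 18.1 and 34.8 with No.10-3. Its log2 change of -0.99 (SE 0.39, edgeR adjusted p = 0.0534) missed the threshold.

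In the list of other NRF2 targets, 31 of 41 genes were tested, 5 fell and 1 rose over input, and the median was -0.22. The number that fell is near the 13.6% of all tested genes that did so, and 12.0% of all tested genes rose. TXN, thioredoxin, the substrate of TXNRD1, stood at 85.6 and 146 normalised CPM in the inputs, 15.5 with vehicle, and 34.0 and 30.6 with No.10-3, for which the fitted log2 change was -2.37 (SE 0.37, edgeR adjusted p = 1.87e-05). FTL and FTH1, the ferritin chains, had log2 changes of -2.24 (edgeR adjusted p = 4.91e-04) and -1.68 (0.00843). FTH1 was called in 9 of 12 other settings, and FTL in all 12. SLC7A11, the cystine transporter, had -2.10 (edgeR adjusted p = 5.16e-04), with the inputs at 339 and 129 normalised CPM, and without input library 1 it was -1.23 (edgeR adjusted p = 0.133). MGST1, a microsomal glutathione transferase, had -2.04 (edgeR adjusted p = 1.87e-04), and without input library 2 it was -1.47 (0.0807). OSGIN1 was the 1 gene that rose, with a log2 change of 1.42 (edgeR adjusted p = 0.0251). It was called in 6 of 12 other settings, and not with DESeq2 or a model of 2 groups. The abundant transporter ABCC1 had 0.80 and did not pass. GSTP1 had 0 counts in every library. TXN (508 bases), RBX1 (521), FTL (871), MGST1 (1140) and FTH1 (1229) are shorter than the median gene of the table (2224), while SLC7A11 (9648) and BACH1 (6731) are longer. The part of length in these results was not tested. The ferritin and thioredoxin genes have many pseudogene copies of near-identical sequence, which makes their read numbers uncertain.

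**Figure D4:**
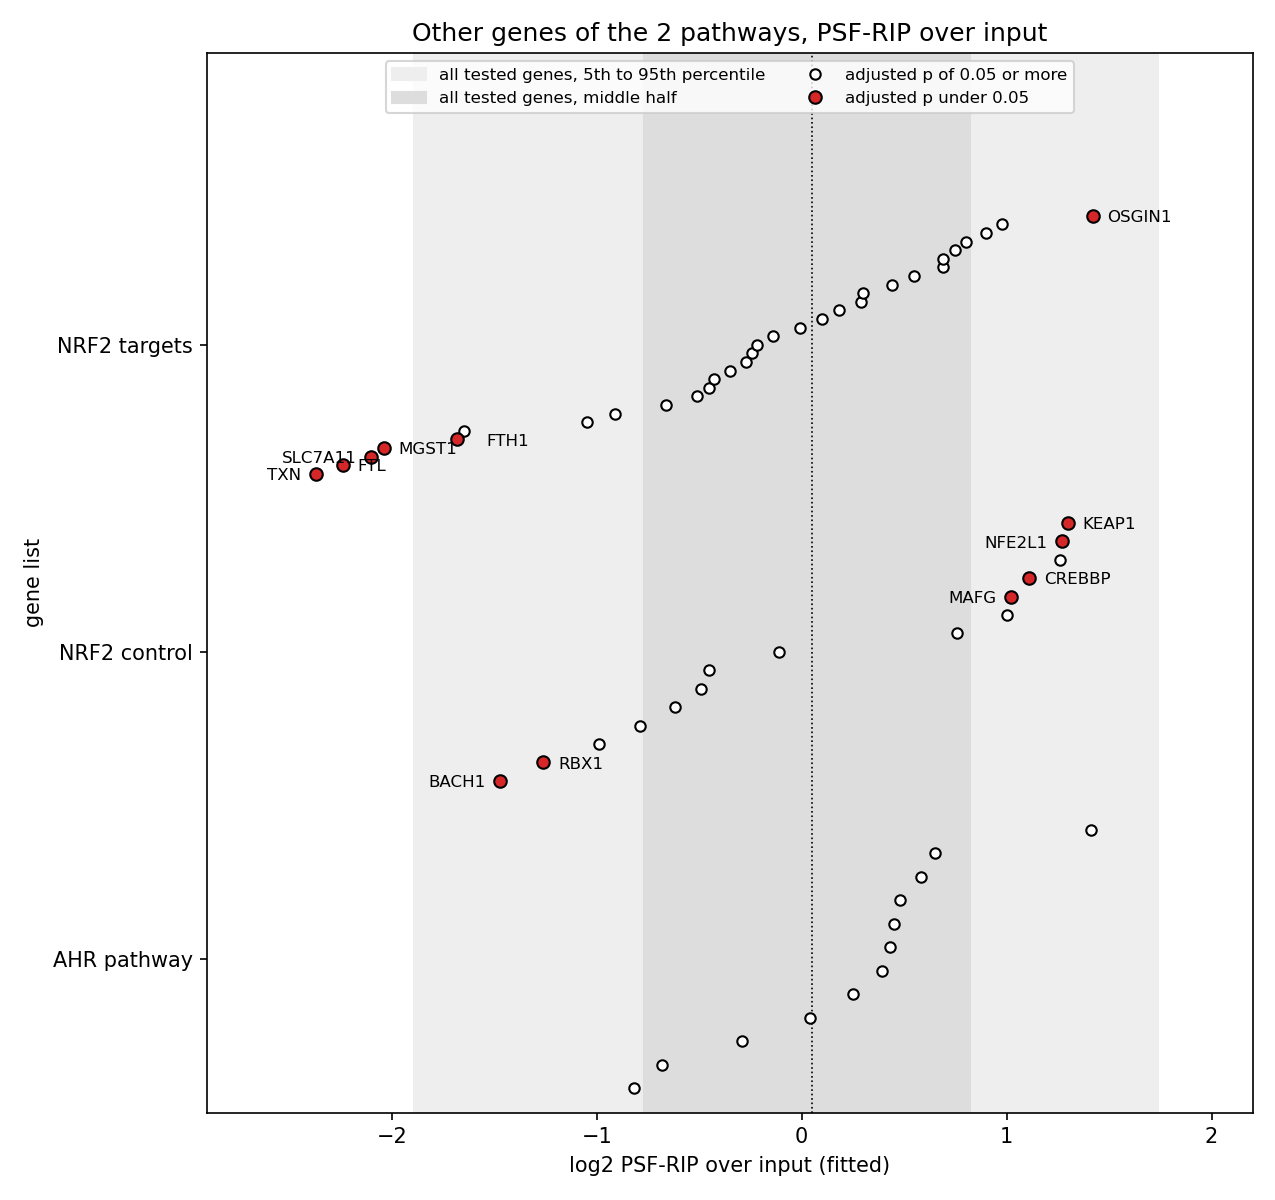
Fitted log2 change of PSF-RIP over input for the tested genes of the 3 lists, 1 point per gene, without 1 gene of the AHR list that is not reported here, red where the edgeR adjusted p was under 0.05. The grey bands show all tested genes, from -1.89 to 1.74 for the 5th to 95th percentile, and TXN, FTL, SLC7A11 and MGST1 lie below that range.

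The calls in these lists depended on single libraries and, for MAFG and OSGIN1, on the tool or model too. Fewer list genes were called with the inputs summed to 1 library, without either input library or without the vehicle PSF-RIP library. More were called without either No.10-3 replicate. Calls over all tested genes fell and rose in the same settings, so these shifts are not particular to the lists. TXN and FTL were called lower in all 12 other settings run except library totals, with log2 changes of -2.70 to -1.85 and -2.65 to -1.99. With No.10-3 against vehicle no gene of the lists passed the test. The medians of the AHR, control and target lists in that comparison were 0.20, 0.19 and 0.20, against 0.04 for all tested genes. Higher than vehicle in both replicates were 2 of 13 AHR list genes, 8 of 15 control genes and 14 of 34 target genes, and lower in both were 1, 3 and 7. Over all tested genes these shares were 33.2% and 32.4%.

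The genes closest in pattern were found by the distance between log2 profiles over the 5 libraries, each centred on its mean. ECI2 was closest to TIPARP among 13320 other tested genes (distance 0.178), CYP4V2 to NQO1 (0.0876), CDCA2 to HMOX1 (0.0723) and RAB10 to GCLM (0.118). PDHX was closest to TXNRD1 (0.102), VGLL4 to SRXN1 (0.0869) and NFATC4 to AHRR (0.129). BST2 had the same count as AHR in every library, and these few counts make that likeness uninformative. With 5 libraries, close profiles are a description only.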

How the data were processed

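RIP-seq of 5 samples was analysed from 1 table with a row per Entrez gene. The authors deposited read counts per gene (whole numbers, taken as raw), gene lengths and FPKM. The deposited FPKM of the PSF-RIP libraries equals the count over length and library total (largest relative deviation 4.81e-08), so FPKM was computed this way for all libraries, and 2 FPKM columns of the inputs were not used. TopHat2 2.1.0, Bowtie2 2.2.6, Bowtie and hg19 are named without roles, per the submitters' processing notes. The counting tool, strand setting and handling of multi-mapping reads were not given in the sources used here. Treated PSF-RIP columns are named for the compound only and were assigned by elimination.

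The filter was a mean CPM of 1 or more over the fitted libraries. Tests were run with edgeR 4.0.16 (R 4.3.3), TMM factors, quasi-likelihood fits and Benjamini-Hochberg adjustment over all tested genes at 0.05. PSF-RIP over input used all 5 libraries in a model of 3 groups (2 residual degrees of freedom) and the mean of both PSF-RIP groups. No.10-3 against vehicle used the 3 PSF-RIP libraries (1 residual degree of freedom), with the spread of the treated pair assumed for the lone vehicle library. The SE of a log2 change is its size over the square root of the F statistic. Per-library log2 CPM had a prior count of 2. DESeq2 1.42.0, other scaling, filters and left-out libraries were alternatives. The code was tested on simulated counts.

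Counting noise alone did not account for the differences within the input pair (chi-square over its degrees of freedom 6.79) or the treated pair (26.7), so each library counted once. That chi-square used library totals and not TMM factors, so it also takes in shifts in composition. The members and lists were chosen with earlier results of these data known. Named genes were the 8 members, up to 5 called genes per list by size of change and the 3 most abundant; CYP1A1, CYP1B1, NFE2L2, GSTP1, MAFG and OSGIN1 were added after their values were seen. Of the table's genes, 23696 matched a RefSeq table by Entrez ID. Intervals cover counting error only. Some listed genes are not reported here.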

Additional observations from a re-analysis of the deposited data

How the results depend on the processing

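Scaling matters most for PSF-RIP over input. With library totals only, genes called higher and lower numbered 11223 and 54 over both groups, 9725 and 50 with vehicle, and 11533 and 53 with No.10-3. The log2 changes were then 0.75 for TIPARP (0.21 with vehicle, 1.28 with No.10-3), 2.15 for NQO1, 2.09 for HMOX1, 1.43 for GCLM, 1.69 for TXNRD1, 0.88 for BACH1, 1.09 for RBX1, 0.09 for FTL, 0.26 for SLC7A11, 0.33 for MGST1 and 0.66 for FTH1. DESeq2 called 985 higher over both groups, 669 with vehicle, and 307 higher and 576 lower with No.10-3. Of the 13321 tested genes it gave no adjusted p for 3616 over both groups, AHR and AHRR among them. With vehicle that number was 3874, and with No.10-3 4907. The main counts with vehicle were 1338 and 1390, and with No.10-3 663 and 866. SRXN1 was at -0.0023 with DESeq2, -0.0084 with upper-quartile factors, -0.04 at a mean of at least 5 CPM, -0.03 with factors from protein-coding genes (chosen after seeing the data), -0.16 without input library 1 (0.25 without input library 2) and -0.04 without No.10-3 replicate 1. HMOX1 was at 0.09 without input library 1 and -0.54 without input library 2, and NQO1 at 0.14 without the vehicle PSF-RIP library. That setting gave 576 higher and 829 lower, and inputs summed to 1 library gave 130 and 801. Leaving out 1 library of a pair gave 66 to 2679 higher and 550 to 2887 lower, with vehicle 48 to 2475 and 284 to 2520, and with No.10-3 12 to 2034 and 222 to 2039. Each fit without 1 library of a pair has fewer residual degrees of freedom than the main fit, yet calls fell in some and rose in others. Without 1 input library only the treated pair sets the spread, and without 1 treated library only the input pair does. The cause was not tested. Without treated replicate 1, AHR and HMOX1 were 0.05 and 0.17 above vehicle, and without replicate 2 they were at -0.21 and -0.42. No gene was called for No.10-3 against vehicle by edgeR or DESeq2 in any setting that gave a test; with 1 treated library left there is no test. No paired analysis was possible because the input columns carry no link to a sample and only 1 vehicle PSF-RIP library exists here. Input depth, with a median of 16 and 23 counts, limits AHR and AHRR most.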
